A study of Mus musculus with 2 samples.

Results

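The 7 genes described here encode receptors and other membrane proteins of platelets and of megakaryocytes, the bone marrow cells that make platelets. They are Itga2b, Gp9, Gp5, Clec1b, Treml1, Cd9 and F2r, named as a fixed list, and all 7 were among the 14366 gene symbols held by both deposited tables. The study placed hematopoietic stem cells (HSC) of the mouse in culture and asked how removal of iron affects their transcripts. HSC were sorted from the pooled bone marrow of 8 wild-type C57/B6 mice aged 6 to 8 weeks, by the surface phenotype Lin-Sca-1+c-Kit+CD150+CD48-. The labels do not say whether 1 sort supplied both libraries. All cells were then cultured in Myelocult medium with thrombopoietin (50 ng/ml), the growth factor that drives megakaryocyte formation, and SCF (100 ng/ml), which sustains stem cells, and with the antibiotic Primocin, so both groups received all of these. For 48 h 1 culture received 10 µM deferoxamine (DFO), which binds iron, and the other received sterile water as vehicle. Droplet sequencing of transcript 3′ ends, with a unique molecular identifier on each captured molecule, started from 20000 live cells of each culture. Each group has 1 library from pooled animals. The differences below therefore have no replicates behind them, and no test was run.

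Platelets stop bleeding in steps, and different receptors serve each step. The glycoprotein Ib-IX-V complex, of which Gp9 and Gp5 encode the subunits IX and V, catches von Willebrand factor at a damaged vessel wall. CLEC-2, the product of Clec1b, and the thrombin receptors then signal into the cell. The integrin alpha-IIb, the product of Itga2b, pairs with the beta-3 chain to bind fibrinogen and link platelets to each other. In bone marrow, Itga2b (CD41) and Cd9 transcripts are known from stem and early progenitor cells as well, whereas Gp9, Gp5, Treml1 and Clec1b are known mainly from the megakaryocyte lineage.

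The members lie on 5 chromosomes of the mouse genome (GENCODE M21 annotation, build GRCm38, the assembly that mm10 names). Itga2b (ENSMUSG00000034664.13) lies on the minus strand at chr11:102453297-102470122. Gp9 (ENSMUSG00000030054.4) lies on the plus strand at chr6:87778072-87779768 and Gp5 (ENSMUSG00000047953.7) on the minus strand at chr16:30307685-30310779. Clec1b (ENSMUSG00000030159.15), on the plus strand at chr6:129397297-129409335, shares annotated exon sequence with its neighbour Clec9a on the same strand. Clec9a itself had 16 molecules in the vehicle and 6 in the DFO library, against 1005 and 290 of Clec1b. Treml1 (ENSMUSG00000023993.7) lies on the plus strand at chr17:48359916-48367176 and F2r (ENSMUSG00000048376.6) on the minus strand at chr13:95601803-95618487. Cd9 (ENSMUSG00000030342.8), on the minus strand at chr6:125460266-125494791, overlaps an exon of Gm26728 on the opposite strand. The strand setting of the counting is not known here, so reads of overlapping genes may be shared.

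RefSeq promoter windows (build GRCm38.p6) were found for all 7 members. The 250 bases before the RefSeq start site are shown for 5 of them, 3 lower in the DFO library that hold matches to the searched motifs, Treml1, which is lower with no match, and F2r, which also has none. GATA and ETS motifs were searched on both strands, because megakaryocyte genes are known for sites of both factor families. The letters searched were the GATA words AGATAA and TGATAA and the ETS words AGGAAG and GGAAGT, which can overlap each other, and matches are in capitals. Each sequence is written 5′ to 3′ on the strand of its gene. RefSeq start sites can differ from the GENCODE ends given above. Most of the Itga2b window, which is not shown, and a short end of the F2r and Cd9 windows lie inside the gene as GENCODE places it.
Gp9, chr6:87777820-87778069, plus strand: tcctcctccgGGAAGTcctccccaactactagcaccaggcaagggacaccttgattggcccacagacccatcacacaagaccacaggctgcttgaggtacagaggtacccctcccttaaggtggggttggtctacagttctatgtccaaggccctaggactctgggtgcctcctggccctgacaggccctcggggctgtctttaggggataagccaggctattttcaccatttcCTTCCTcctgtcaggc
Gp5, chr16:30310782-30311031, minus strand: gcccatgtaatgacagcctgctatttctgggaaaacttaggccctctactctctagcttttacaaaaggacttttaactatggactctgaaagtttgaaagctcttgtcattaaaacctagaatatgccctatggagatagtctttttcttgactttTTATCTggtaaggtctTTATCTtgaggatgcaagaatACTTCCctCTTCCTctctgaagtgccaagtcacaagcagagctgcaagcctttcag
Clec1b, chr6:129397047-129397296, plus strand: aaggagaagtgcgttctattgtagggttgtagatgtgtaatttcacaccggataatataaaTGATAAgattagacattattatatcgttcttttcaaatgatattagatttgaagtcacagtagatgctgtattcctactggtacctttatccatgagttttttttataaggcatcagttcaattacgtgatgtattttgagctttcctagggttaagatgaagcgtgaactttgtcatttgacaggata
Treml1, chr17:48359666-48359915, plus strand: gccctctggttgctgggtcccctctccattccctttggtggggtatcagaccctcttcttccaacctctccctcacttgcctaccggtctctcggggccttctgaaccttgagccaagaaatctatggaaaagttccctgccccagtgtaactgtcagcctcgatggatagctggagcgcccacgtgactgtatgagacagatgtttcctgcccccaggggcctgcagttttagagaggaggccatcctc
F2r, chr13:95618467-95618716, minus strand: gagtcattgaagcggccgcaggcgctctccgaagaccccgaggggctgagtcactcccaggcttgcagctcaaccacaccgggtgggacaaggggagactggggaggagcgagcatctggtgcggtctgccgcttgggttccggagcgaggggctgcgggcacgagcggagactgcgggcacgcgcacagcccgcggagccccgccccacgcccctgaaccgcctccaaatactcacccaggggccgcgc
In these windows Gp5 held 2 GATA words, at -93 and -77 from the start site, and 2 ETS words, at -56 and -48. Clec1b held 1 GATA word at -189 and no ETS word. Gp9 held 2 ETS words, at -240 and -16, and no GATA word. Among the members not shown, Itga2b held 3 ETS words and Cd9 held 1, and neither held a GATA word. In all, 2 of 7 windows held a GATA word and 4 of 7 an ETS word. Of 32851 RefSeq windows of the same length, 16.6% held a GATA word and 38.8% an ETS word, so such words are common. A match is a run of letters and not a measured binding site.

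The tables held 8708 vehicle and 9852 DFO cells, with 260938938 and 284326017 molecules and medians of 27805.5 and 27114 molecules per cell. The libraries share 24 cell barcodes. All 12 HSC marker genes on the list were in the tables, and their summed level was 266 CPM (molecules of a gene per 1000000 molecules of the library) in vehicle and 304 CPM in DFO. Ly6a alone made up 83.9 and 111 CPM of these. Of the 9 HSC markers with a mean of at least 5 CPM, 6 were higher and 3 lower in DFO. Their log2 differences ran from -0.27 for Slamf1 to 0.40 for Ly6a. The 10 of 12 megakaryocyte markers in the tables, none of them a member, summed to 1564 CPM in vehicle and 658 CPM in DFO. Pf4 alone made up 1447 and 592 CPM of these, and all 8 megakaryocyte markers with a mean of at least 5 CPM were lower in DFO. The 10 of 12 erythroid markers summed to 628 and 569.7 CPM, of which Hbb-bt made up 518 and 489 CPM. All 5 erythroid markers with a mean of at least 5 CPM were lower in DFO, with a median log2 difference of -0.40, from -0.65 for Gata1 to -0.08 for Hbb-bt. The 9 of 11 neutrophil-monocyte markers summed to 267 and 244 CPM, of which Prtn3 made up 163 and 151 CPM. All 4 with a mean of at least 5 CPM were lower in DFO. Of those under that level, Elane was higher, with 53 molecules in vehicle and 451 in DFO (log2 difference 1.10). Irf8 (0.11) was higher as well, while Mpo, Csf1r and Fcgr3 were lower. The 6 of 7 mast cell or basophil markers summed to 10.4 and 6.83 CPM. The lymphoid (4 of 9; 22.2 and 22.7 CPM), macrophage or dendritic (3 of 7; 2.13 and 1.98 CPM) and stromal or endothelial markers (6 of 8; 55.8 and 54.3 CPM) were similar in both. Cma1 of the mast cell list had no molecule in the DFO library, which allows up to 0.0106 CPM (3 molecules of the total), and Col1a1 of the stromal list none in the vehicle library (up to 0.0115 CPM). None of 4 eosinophil markers was in the tables. The part of these cells in the differences below was not tested.

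All 7 receptor genes were lower in the DFO library, and 5 of them, the 4 genes known mainly from megakaryocytes and Itga2b, by a log2 difference of 0.5 or more. The difference is log2((DFO CPM + 1)/(vehicle CPM + 1)), from molecules summed over all cells. Over the 7 genes its median was -0.76. These values depended on how the cells were weighted. With cells of each library reweighted to equal shares of 20 bins along the ordering described below, 2 of 7 genes were lower by 0.5 or more, Cd9 (0.023) and F2r (0.15) were higher in DFO, and the median was -0.24. With equal shares of the clusters described below 2 genes were lower by 0.5 or more and the median was -0.31, and with equal shares of bins ranked by 6 transcription factors these were 3 genes and -0.46. These 6 factors are also among the genes of the ordering, so the rankings are not independent. Of the 8886 genes whose mean level reached 5 CPM, 0.664% were lower by 0.5 or more and 42.1% were lower by any amount, and their median was 0.019. With the reweightings above, the share of all genes lower by 0.5 or more fell as well. It was 0.113% with the ordering bins, 0.27% with the clusters and 0.281% with the transcription factor bins. Clec1b lies under 5 CPM. Of the 6 members above it, 4 were lower by 0.5 or more, and the median of these 6 was -0.66. Levels carry exact 95% Poisson intervals, which cover counting error only and leave out variation between cells and between cultures. In such sums, fewer cells of a kind and fewer molecules per cell cannot be told apart. Levels of different genes are not compared, because capture of transcript ends can differ between genes.

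Among the subunits of the von Willebrand factor receptor, Gp9 had 36.3 CPM (35.6 to 37.1) in the vehicle and 19.8 CPM (19.3 to 20.4) in the DFO library. Its log2 difference of -0.84 was the 16th lowest of the 8886 genes. Gp5, whose product is also cut by thrombin, had 37.7 CPM (37 to 38.5) and 21.9 CPM (21.4 to 22.5), a log2 difference of -0.76 and rank 21. The genes thus stood at 54.6% and 58.1% of their vehicle levels, with intervals far apart. Itga2b, the fibrinogen receptor chain, had 119 CPM (117 to 120.1) and 79.6 CPM (78.6 to 80.6), a log2 difference of -0.57 and rank 45. With equal shares of the ordering bins none of the 3 was lower by 0.5, with Gp9 at -0.49, Gp5 at -0.24 and Itga2b at -0.18.

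Of the signalling receptors, Treml1 and Clec1b had the lowest differences of the 7. Treml1 encodes a receptor held in platelet granules that reaches the surface on activation. It had 23.9 CPM (23.3 to 24.5, from 6232 molecules) in the vehicle and 8 CPM (7.68 to 8.34, from 2275 molecules) in the DFO library, a log2 difference of -1.47, the lowest of all 8886 genes. Clec1b had 3.85 CPM (3.62 to 4.1) in vehicle and 1.02 CPM (0.906 to 1.14) in DFO, a log2 difference of -1.26. At this low level the added 1 CPM reduces the difference, which was -1.82 with 0.1 CPM added and -0.33 with 10 CPM added. Its molecules were also unevenly spread, since the 10 cells with the most held 47.2% of the 290 DFO molecules and 16.8% of the 1005 vehicle molecules. The Poisson interval of Clec1b is therefore too narrow. With equal shares of the ordering bins Treml1 stood at -0.80 and Clec1b at -0.51.

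Cd9 and F2r differed little between the libraries. Cd9 encodes a tetraspanin, a membrane protein that organises integrins and is abundant on platelets. It had 355 CPM (353 to 358) in vehicle and 317 CPM (315 to 319) in DFO, a log2 difference of -0.16 and rank 574. F2r encodes the thrombin receptor PAR1, on which mouse platelets are known not to rely, since they sense thrombin through the products of F2rl2 and F2rl3. It had 44.8 CPM (44 to 45.6) and 42 CPM (41.2 to 42.8), a log2 difference of -0.09 and rank 1366. Both were higher in DFO with equal shares of the ordering bins, and F2r also with equal cluster shares (0.064) and equal transcription factor bins (0.071).

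**Figure D1:**
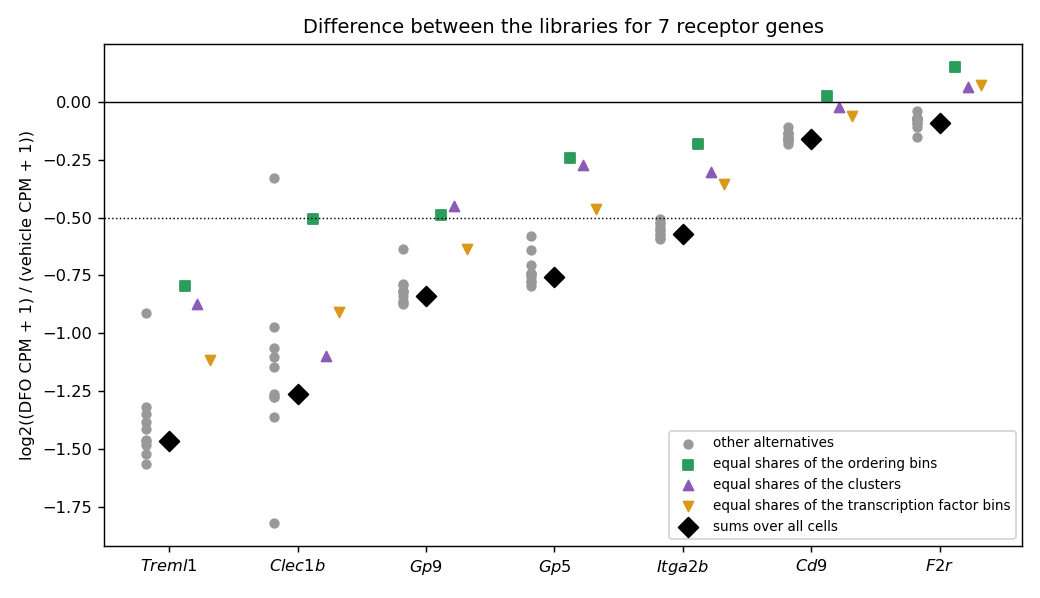
Log2 difference between the DFO and vehicle libraries (y axis) for each of the 7 receptor genes (x axis). Diamonds are sums over all cells, coloured symbols are cells reweighted to equal shares of bins or clusters, and grey points are the other alternatives. The dotted line marks -0.5. Treml1 at -1.47 is lowest and F2r at -0.09 highest, and the reweighted values lie closer to zero or above it.

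The share of cells with a molecule was compared after each cell was thinned to 10000 molecules, which left 8357 vehicle and 9419 DFO cells. Shares carry exact 95% Clopper-Pearson intervals. Itga2b was seen in 50.5% (49.4% to 51.5%) of vehicle and 41.5% (40.5% to 42.5%) of DFO cells. Gp9 was seen in 25.6% (24.7% to 26.6%) and 16.6% (15.8% to 17.3%), and Gp5 in 21.5% (20.6% to 22.4%) and 14% (13.3% to 14.7%). These 3 genes were thus seen in fewer DFO cells, with intervals apart. Treml1 was seen in 13.2% (12.5% to 13.9%) and 5.71% (5.25% to 6.2%), and Clec1b in 1.79% (1.52% to 2.1%) and 0.467% (0.34% to 0.627%). F2r, in 30.6% and 29.6% of cells, had overlapping intervals (29.6% to 31.6% and 28.7% to 30.5%). Cd9 was seen in nearly every cell, 91.3% of vehicle and 91.9% of DFO cells, so its share was not lower in DFO. Without thinning the shares of Itga2b, Gp9 and Gp5 were 70.1%, 46.6% and 35.4% in vehicle and 62.3%, 33.7% and 25.5% in DFO. Those of Treml1 and Clec1b were 24% and 4.33% in vehicle and 12% and 1.2% in DFO, those of Cd9 96.4% and 96.1%, and those of F2r 57% and 55.6%. No cell type in these cultures is known to lack the genes. In cluster 3, described below, which had the lowest mean fold of megakaryocyte markers, the thinned shares in vehicle and DFO were 3.01% and 1.83% for Treml1, 5.02% and 4.87% for Gp5, and 0.14% and 0.19% for Clec1b. They were 32.9% and 30.9% for Itga2b, 13% and 9.89% for Gp9, 20.3% and 22.1% for F2r, and 87.5% and 89% for Cd9, which is a large part of the shares in all cells.

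The number of molecules in cells that held at least 1 was also compared. It was not taken over all genes and carries no interval, so no count of members is read from it. In thinned cells with at least 1 molecule, the mean number of Itga2b molecules was 2.23 in vehicle and 1.88 in DFO. It was 1.41 and 1.24 for Gp9, 1.6 and 1.44 for Gp5, and 1.51 and 1.3 for Treml1. Cd9 had 3.89 and 3.52. F2r differed least, at 1.42 and 1.39. Clec1b was higher in DFO, with 1.28 in vehicle and 1.45 in the 44 DFO cells that had it.

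The other platelet receptor genes on the list were mostly lower by small amounts. Of 48, 44 were in the tables and 29 had a mean of 5 CPM or more. Of these 29, 25 were lower and 4 higher in DFO, 7 were lower and 1 higher by 0.25 or more, and 3 were lower by 0.5 or more, with a median of -0.07. Over all 8886 genes 42.1% were lower by any amount and 0.664% by 0.5 or more. By 0.25 or more, 2.58% were lower and 1.4% higher. The lowest were F2rl2 (-0.57), which encodes the thrombin receptor PAR3, and P2ry1 (-0.51), which encodes an ADP receptor. The highest were Lair1 (0.28), an inhibitory collagen receptor, and Cd53 (0.19), a tetraspanin. Partners of the members were lower as well. Itgb3, the beta chain that pairs with Itga2b, had 75.6 CPM in vehicle and 55.4 CPM in DFO, a log2 difference of -0.44. Gp1bb and Gp1ba, which complete the complex of Gp9 and Gp5, had 805 and 377 molecules in vehicle and 404 and 242 in DFO, log2 differences of -0.75 and -0.40. Both lie under 5 CPM (3.09 and 1.44 CPM in vehicle), where the added 1 CPM reduces the difference. F2rl3, which encodes PAR4, differed by -0.06, close to the -0.09 of F2r.

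Genes that carry receptor signals and granule genes were also mostly lower, the granule genes by more at the median. Of 24 receptor signalling genes at 5 CPM or more, 18 were lower and 6 higher, 3 of them lower by 0.25 or more, with a median of -0.064. Over all genes 42.1% were lower and 2.58% lower by 0.25 or more. Lat, the adaptor that links collagen receptor and CLEC-2 signals to calcium, was lowest at -0.68, followed by the integrin activator Rap1b at -0.47. Flna (0.19), which anchors the von Willebrand factor receptor to actin, and Ywhaz (0.09) were highest. Of 15 granule and platelet protein genes, 14 were lower, 13 of them by 0.25 or more, with a median of -0.54. Pf4 (-1.29) and Ppbp (-1.16) were lowest there, Srgn (-0.15) and Nbeal2 (0.04) highest. Of 15 transcription factor genes, 11 were lower and 4 higher, 3 lower and 1 higher by 0.25 or more, with a median of -0.12. Gata1 (-0.65) and its partner Zfpm1 (-0.45) were lowest, and Ldb1 (0.26) and Etv6 (0.09) highest. The lists were chosen with earlier results of these data known, so their direction is not independent evidence.

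To describe the order in which the receptor genes appear, thinned cells of both libraries were ranked together by the mean scaled level of 22 other megakaryocyte genes, 20 of them in the tables. The ordering genes included Pf4, Ppbp, the partner genes Itgb3 and Gp1bb, and the 6 transcription factors used alone in another ranking (Gata1, Zfpm1, Gfi1b, Nfe2, Fli1 and Tal1). The ranking was divided into 20 bins of equal size. It is a ranking of cells taken at 1 time and not a record of time. All 20 ordering genes were lower in DFO (median -0.51), so the bins are ranges of a score that itself differs between the libraries. The highest bin held 7.4% of vehicle and 2.88% of DFO cells, the lowest 4.14% and 5.76%.

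All 7 genes were highest in the last bin of both libraries. Since the cells were ranked by other megakaryocyte genes and all genes were not counted this way, no result is read from that. Ranked by Pf4 and Ppbp alone, Itga2b, Gp5 and F2r were highest in bin 19 of both libraries. Gp9 was then highest in bin 19 in vehicle and 18 in DFO, and Cd9 in bin 20 and 19. Treml1 and Clec1b stayed highest in bin 20. In the main ranking the genes approached the last bin differently. In vehicle cells Cd9 had 2.4 molecules per thinned cell in the first bin and 7.04 in the last, and in DFO cells 2.44 and 6.88. Its level in the first bin was thus already 34% and 35.5% of its highest. F2r had 0.156 and 0.948 molecules per cell in vehicle, and 0.186 and 1.2 in DFO. Itga2b had 0.306 and 3.21 in vehicle, and 0.282 and 2.92 in DFO. Gp9 had 0.101 and 0.916 in vehicle, and 0.081 and 0.756 in DFO. F2r, Gp9 and Itga2b thus started at between 9.54% and 16.5% of their highest level. Gp5 had 0.0145 and 1.16 in vehicle, and 0.0313 and 1.11 in DFO. Treml1 had 0.0116 and 0.95 in vehicle, and 0.00921 and 0.613 in DFO. Both stood at under 3% of their highest level in the first bin. Clec1b had no molecule in the first bin of either library, 346 vehicle and 543 DFO cells, which allows up to 0.00867 and 0.00552 molecules per cell (3 molecules over those cells). In the last bin it had 0.206 in vehicle and 0.151 in DFO.

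**Figure D2:**
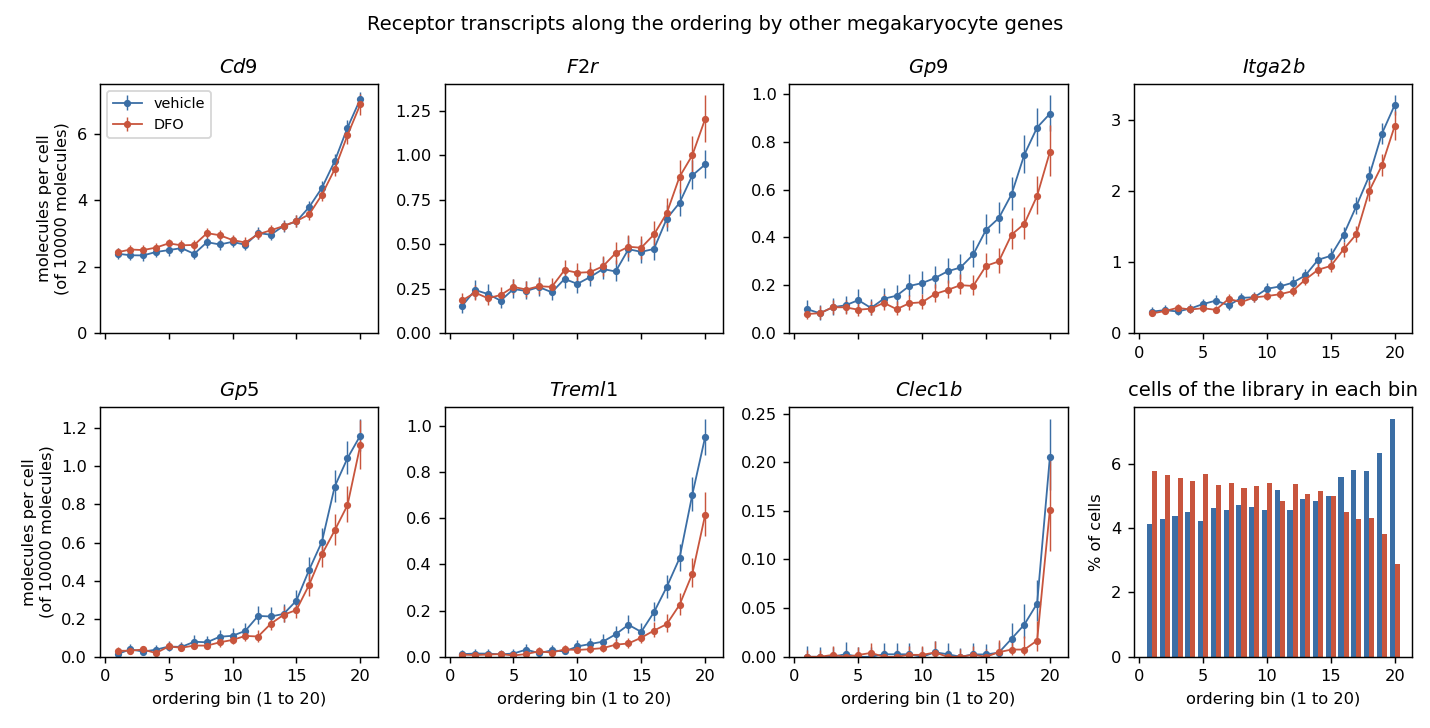
Mean molecules per cell, of 10000 molecules, for each receptor gene (y axis) in 20 bins of cells ranked by other megakaryocyte genes (x axis), with exact 95% Poisson intervals. The last panel gives the percentage of each library's cells in each bin. Clec1b stands near 0 until the last bins, while Cd9 starts at 2.4 and ends at 7.04 in vehicle cells.

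Onset was taken as the first bin from which a gene stayed at or above a set part of its highest bin. At 25% of the highest level, the order in vehicle cells was Cd9 (from the lowest cells on), F2r (40th percentile of the ranking), Gp9 (50th), Itga2b (60th), Gp5 (70th), Treml1 (80th) and Clec1b (90th). In DFO cells it was Cd9 (from the lowest cells on), F2r (40th), Gp9 and Itga2b (both 60th), Gp5 (75th), Treml1 (85th) and Clec1b (95th). Of the 21 gene pairs, 20 stood in the same order in both libraries and 1 was tied. At 50% of the highest level the genes lay closer together. In vehicle cells Cd9, F2r and Gp9 reached it at the 75th percentile, Itga2b and Gp5 at the 80th, Treml1 at the 90th and Clec1b at the 95th. In DFO cells Cd9 reached it at the 75th, F2r and Gp9 at the 80th, Itga2b and Gp5 at the 85th, and Treml1 and Clec1b again at the 90th and 95th. Then 17 pairs had the same order in both libraries, 4 were tied in at least 1 library and none was reversed. Itga2b and Gp5 were thus not separated at 50%, while at 25% Itga2b came first in both libraries. Clec1b and Treml1 came last in the other settings as well, but they were tied with each other with 10 bins and in female DFO cells, and Gp5 was tied with Treml1 in DFO cells ranked by transcription factors. Of the settings, ranking by Pf4 and Ppbp alone, unthinned counts and female cells alone each put 1 pair in opposite orders in the libraries.

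**Figure D3:**
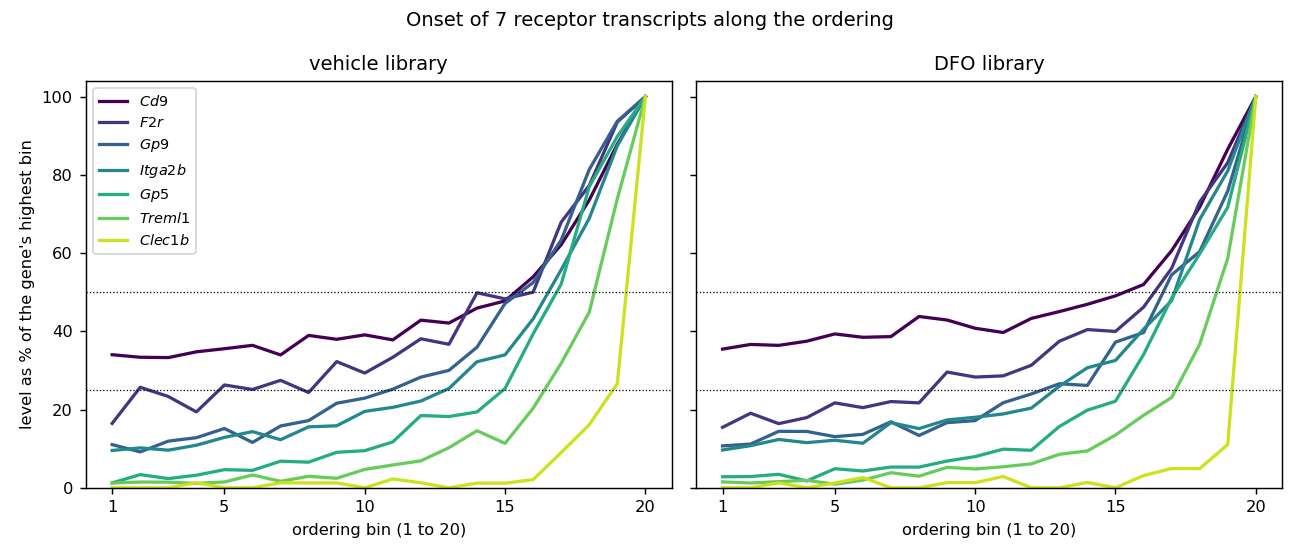
Level of each receptor gene as a percentage of its highest bin (y axis) along the 20 bins (x axis), vehicle on the left and DFO on the right. Dotted lines mark 25% and 50%. Cd9 lies above 25% in every bin, Treml1 passes 25% at the 80th and 85th percentile, and Clec1b is last in both libraries.

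Within ranges of 20% of the ranking, Treml1 and Gp9 stayed lower in DFO. Itga2b and Gp5 were lower with intervals apart in the middle and highest ranges. Outside the highest range Clec1b lay under 1 CPM, so the added 1 CPM reduces any difference there. The 20% of cells ranked highest held 2117 vehicle and 1438 DFO cells (25.3% and 15.3% of thinned cells). There Treml1 had 69.2 CPM (67.3 to 71.1) and 33.4 CPM (31.7 to 35), a log2 difference of -1.03. Gp9 had 76.8 CPM (74.8 to 78.8) and 50.9 CPM (48.8 to 52.9), a log2 difference of -0.59. Clec1b had 12.8 CPM (12 to 13.7) and 5.47 CPM (4.82 to 6.17), a log2 difference of -1.10. Gp5 (-0.36), Itga2b (-0.27) and Cd9 (-0.12) differed by less. F2r was higher in DFO there, with 79 CPM (77 to 81) in vehicle and 87.2 CPM (84.5 to 89.9) in DFO. In the middle 20% Treml1 differed by -0.59 and Gp9 by -0.56, while Gp5 differed by -0.35, Itga2b by -0.22, Cd9 by 0.04 and F2r by 0.14. Clec1b had 9 molecules in each library there. In the lowest 20% the intervals overlapped for Itga2b, Gp5, Clec1b and F2r. Gp9, with 10.1 CPM (9.2 to 11.1) and 8.39 CPM (7.68 to 9.16), and Treml1, with 1.42 CPM (1.09 to 1.82) and 0.811 CPM (0.6 to 1.07), were lower in DFO with intervals just apart. Cd9 was higher in DFO there (228 CPM, 223 to 232, against 244 CPM, 240.1 to 248). Close to the score at which the highest 20% begins lay 416 vehicle and 365 DFO cells (within 0.0443 score units). The libraries also filled the highest 20% differently, with 618 of its vehicle and 271 of its DFO cells in the last bin. In that bin the Clec1b intervals overlapped, at 0.206 (0.171 to 0.245) and 0.151 (0.109 to 0.205) molecules per thinned cell. How much of the Clec1b difference follows from this was not tested.

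The cells were also grouped by clustering on the most variable genes, with the 7 members left out. Of 6 clusters, cluster 2 was megakaryocyte-like, with Cavin2, Tesc, Serpinb2, Pf4 and Timp3 among its top 10 genes. The others stayed unnamed. Cluster 0 had Sult1a1 and Procr in its top 10, cluster 1 was led by mitosis genes such as Nusap1, cluster 3 by Rapgef5 and Hist1h1a, and the shallow cluster 4 by Rpgrip1 (6931 molecules per cell at the median). Cluster 5 was led by Trnp1, Aqp1, Gna14 and Tspan33 and also had Klf1, Apoe and Il1rl1 in its top 10. Of vehicle cells 23.8% were in cluster 2 and 3.95% in cluster 5, and of DFO cells 17.8% and 1.26%. Since genes used for clustering differ between the libraries, no change in makeup is read from these shares.

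Most molecules of the late members lay in cluster 2. It held 95% of the Clec1b, 83.5% of the Treml1 and 77.1% of the Gp5 molecules of the vehicle library, against 64.8% for Itga2b, 59.6% for Gp9, 50.1% for F2r and 47.9% for Cd9. In the DFO library it held 91% for Clec1b, 77.4% for Treml1, 71.2% for Gp5, 55.1% for Itga2b, 49% for Gp9, 41.2% for F2r and 33.7% for Cd9. Clusters 2 and 5 had the highest levels of Itga2b, Gp9, Gp5, Treml1 and Cd9 in both libraries. In vehicle cells Itga2b had 258 CPM in cluster 2 and 232 CPM in cluster 5, and between 47.2 and 78.3 CPM in the other clusters. Gp9 had 94 CPM (86.4 to 102) in cluster 5 and 72.7 CPM (70.8 to 74.6) in cluster 2. Clec1b did not follow this pattern, with 1.51 CPM (0.69 to 2.86) in cluster 5 and 12.3 CPM (11.5 to 13.1) in cluster 2. Its molecules in cluster 5 numbered 9 in 344 vehicle cells and 0 in 124 DFO cells, which allows up to 1.51 CPM, so a difference was not detectable there. In cluster 4, the shallow cells, Cd9 stood at only 76.1 CPM (67.8 to 85.1) in vehicle, while F2r stood at 78.1 CPM (69.7 to 87.2), close to its level of 75.4 CPM (73.5 to 77.3) in cluster 2.

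Between the libraries, Treml1 was lower in DFO in 6 of 6 clusters, from -1.43 in cluster 4 to -0.49 in cluster 0, and in cluster 2 it had 67 CPM (65.2 to 68.8) in vehicle and 29.5 CPM (28.1 to 30.9) in DFO. Gp9 was lower in 6 of 6 (-0.98 to -0.22), with overlapping intervals in cluster 5. Itga2b was lower in 6 of 6 (-0.53 to -0.17). Gp5 was lower in DFO in clusters 0 to 4, with overlapping intervals in clusters 0 and 3, and did not differ in cluster 5, where it had 82 CPM (74.9 to 89.6) and 81.8 CPM (69.7 to 95.4). Clec1b had 955 molecules in vehicle and 264 in DFO cells of cluster 2, a log2 difference of -1.29, and at most 20 molecules in each library in every other cluster. Cd9 was lower in DFO in clusters 2 (-0.17) and 4 (-0.37) and higher in the other 4, with overlapping intervals in clusters 1 and 5. F2r was higher in DFO in 6 of 6 clusters (0.01 to 0.14), with intervals apart in cluster 2 only, where it had 82.3 CPM (80 to 84.7) in DFO.

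**Figure D4:**
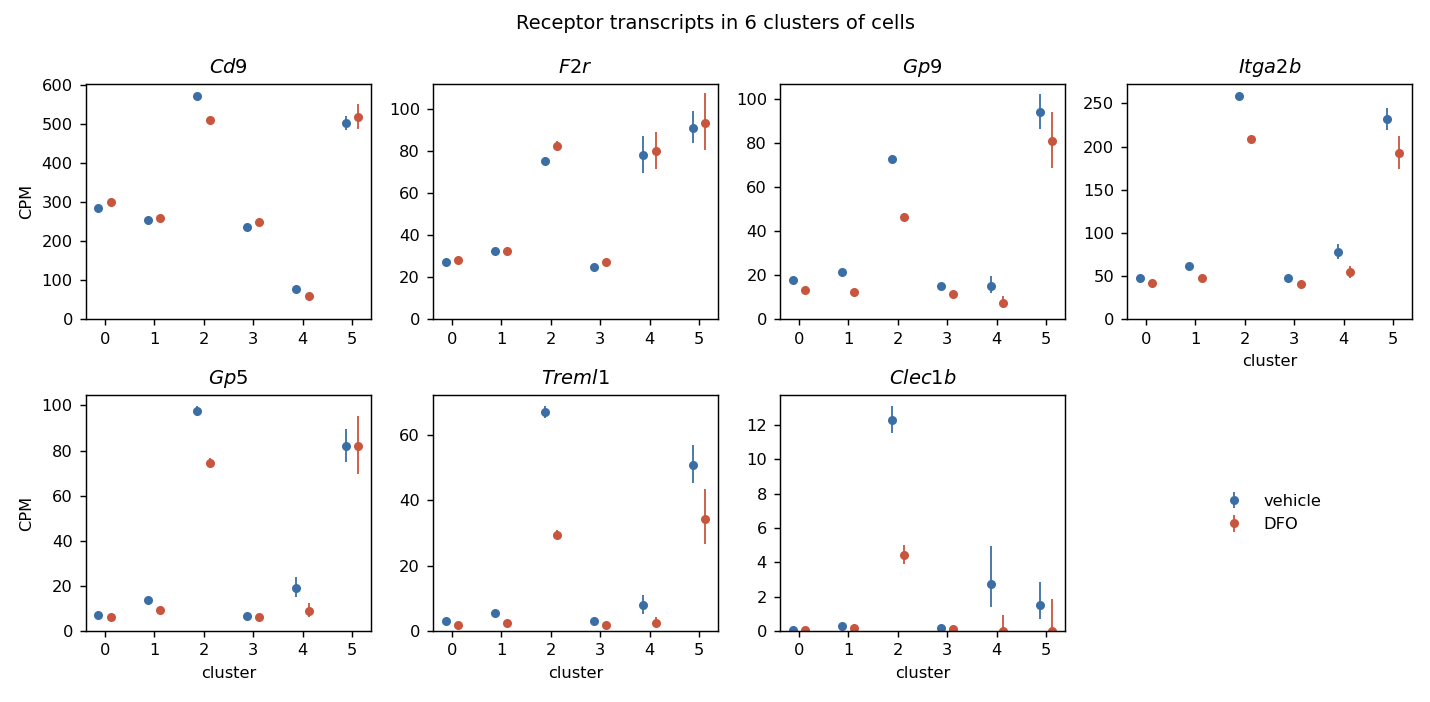
Level of each receptor gene in CPM (y axis) in 6 clusters of cells found without these genes (x axis), for vehicle and DFO, with exact 95% Poisson intervals. Clusters 2 and 5 are highest for Itga2b, Gp9, Gp5 and Treml1, and Clec1b is high in cluster 2 only, at 12.3 CPM in vehicle cells against 4.42 CPM with DFO.

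The members were seen together in single cells more often than the product of their shares. In thinned cells all 21 pairs exceeded the product in both libraries, with a median ratio of 1.57 in vehicle and 1.73 in DFO. Pairs of other genes were not counted this way, so the count is not read as particular to the members. Within the highest 20% of the ranking all 21 pairs exceeded the product in vehicle and 20 in DFO. The exception was Cd9 with F2r in DFO, at 0.999. The ratio was highest for Clec1b with Treml1, at 4.24 in vehicle (84 cells with both) and 8.75 in DFO (22 cells). Gp5 with Treml1 had 2.5 and 3.39, and Gp9 with Treml1 had 2.01 and 2.46. Pairs with Cd9, which is in nearly every cell, cannot exceed 1 by much and had ratios of 1.02 to 1.09. Where the product was taken within each of the 20 bins, the median ratio was 1.07 in vehicle and 1.15 in DFO, so the excess was much smaller among cells of like rank.

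Detection of a pair was often lopsided. Of the vehicle cells with Clec1b, 88.7% also had Itga2b, 57.3% Gp5, 56% Treml1 and 54% Gp9, whereas 3.15% of cells with Itga2b had Clec1b. Of cells with Treml1, 86.8% had Itga2b and 53.8% Gp5. Of cells with Gp5, 82.8% had Itga2b and 33% Treml1. In the DFO library 84.1% of cells with Clec1b and 78.4% of cells with Treml1 had Itga2b. Such shares depend on how often the second gene is seen in all cells, which was 50.5% for Itga2b and 1.79% for Clec1b in vehicle. Of the cells with exactly 1 member detected, 90.5% in vehicle and 92.6% in DFO had Cd9, and none had Clec1b. Cells with 5 or more members made up 7.14%, 2.3% and 0.203% of vehicle cells for 5, 6 and 7 members, and 3.38%, 0.722% and 0.0425% of DFO cells. If the genes were detected independently, 5 members would be seen in 1.85% of vehicle and 0.493% of DFO cells.

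**Figure D5:**
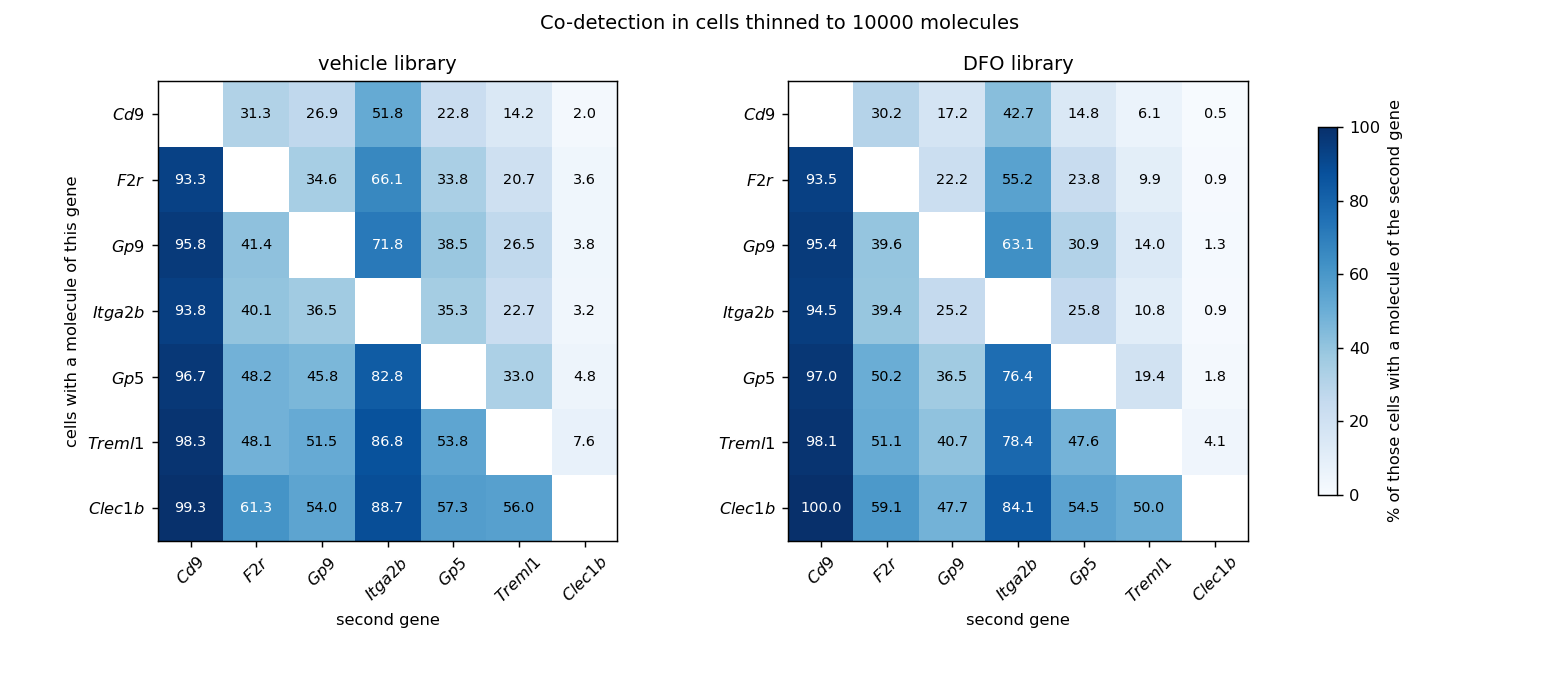
Percentage of the cells with a molecule of 1 receptor gene (rows) that also had a molecule of a second (columns), in cells thinned to 10000 molecules, vehicle on the left and DFO on the right. The Cd9 and Itga2b columns are dark and the Clec1b column pale, with 88.7% of vehicle cells with Clec1b holding Itga2b and 3.15% the reverse.

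Correlations over cells were modest and are given as a description of thinned cells of 1 library, which share depth by construction. The pair with the highest Pearson correlation of ln(1 + molecules) was Itga2b and Gp5, at 0.41 over 8357 vehicle and 0.36 over 9419 DFO cells. Within the highest 20% of the ranking the correlations were no more than 0.25 in vehicle and 0.29 in DFO, both for Itga2b with Cd9. Among all genes at 5 CPM or more, Pf4 was the most alike for 6 of the 7 members by the lower of the correlations in the libraries, at 0.49 for Itga2b, 0.43 for Gp5, 0.33 for Treml1, 0.31 for Cd9, 0.30 for Gp9 and 0.27 for F2r. The actin-binding thymosin gene Tmsb4x was among the 3 most alike for Gp9 (0.24), Treml1 (0.30) and Cd9 (0.31), and the metallothionein Mt1 for Itga2b (0.40). Itga2b itself was among them for Gp9 (0.24), Gp5 (0.36), Cd9 (0.28) and F2r (0.25). Clec1b stood apart, with Serpine2 (0.22), Tesc (0.18) and Treml1 (0.18), which are weak correlations in sparse counts.

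Partner subunits were also seen together, in shares taken over all cells. Unlike the member pairs above, these were not taken among cells of like rank, so no link particular to partners is read. Itgb3 was seen in 48.6% of vehicle cells with Itga2b and 29% of those without, and in 42.5% and 27.9% in DFO. Gp1bb, seen in 2.35% of vehicle and 1.17% of DFO cells, was seen in 6.84% of vehicle cells with Gp5 and 1.11% of those without, and in 4.62% and 0.605% in DFO. Cd9 showed no such difference for the integrin gene Itgb1, which was seen in 65.6% of vehicle cells with Cd9 and 65.9% of those without. Itga6 (57.3% and 53.6%) and Cd81 (94.1% and 87.6%) were seen somewhat more often in vehicle cells with Cd9. Of the signalling genes, Lat was seen in 61.5% of vehicle cells with Treml1 and 27.5% of those without. Syk was seen in 36% of vehicle cells with Clec1b and 27.4% of those without, but in 22.7% and 24% in DFO. F2rl2 was seen in 11.6% of vehicle cells with F2r and 4.31% of those without, and F2rl3 in 18.6% and 17.4%.

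The labels do not give the sex of the mice, but the cells divided by sex-linked transcripts, so the difference can be taken in different animals of the same cultures. Cells were called female (4751 vehicle, 5251 DFO) or male (2767 and 3266) from Xist and 4 Y-linked genes. All 7 members were lower in DFO in cells of both sexes. The share of all genes lower by any amount was 42.1% over all cells and was not taken by sex. In each sex 5 members were lower by 0.5 or more, against 0.709% of all genes at 5 CPM or more in female and 0.619% in male cells. In female cells the difference of Treml1 was -1.52, and in male cells -1.41. In the same order Gp9 differed by -0.88 and -0.82, Gp5 by -0.74 and -0.80, and Itga2b by -0.59 and -0.55. Clec1b differed by -1.15 and -1.36, Cd9 by -0.17 and -0.13, and F2r by -0.07 and -0.15. Both sexes came from the same cultures and libraries, so they are no replicates of the treatment.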

How the data were processed

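Single-cell 3′ libraries (10x Genomics v3) of 1 vehicle and 1 DFO culture were sequenced on 2 lanes each. The submitters' processing notes name FastQC 0.11.9, Trim Galore 0.6.5, Cell Ranger 3.0.2 and build mm10. Which annotation, cell filter and normalization were used is not stated by any label or header. The authors deposited a table of natural log values per library. Back-transformed, each cell's values were whole multiples of its smallest value, and 100% of 44114455 vehicle and 49560434 DFO values were whole within 0.05, so molecules were recovered from them. All deposited cells were used, without a doublet caller.

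Molecules were summed to CPM in Python 3.11.15 (numpy 2.4.6, scipy 1.17.1, pandas 2.3.3). With 1 library per group no test was run. Cells were thinned to 10000 molecules (351 vehicle and 433 DFO cells left out). Clustering used scanpy 1.11.5 and leidenalg 0.10.2, with 2000 variable genes (no members, listed cell cycle, mitochondrially encoded or ribosomal protein genes), 30 components, 15 neighbours and resolution 0.5. Female cells had at least 5 molecules of Xist and none of the Y-linked genes, male cells at most 1 of Xist and at least 2 Y-linked molecules. All 7 members are named, with the 3 most alike genes of each (1 of these genes is not reported here), the 2 highest and 2 lowest genes of each list, their partner subunits and leading genes of clusters. Partners and cluster genes were chosen after their values were seen. The calculations were checked on simulated data. Members and lists were chosen with earlier results of these data known.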

Additional observations from a re-analysis of the deposited data

How the results depend on the processing

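The median log2 difference of the 7 genes, -0.76, stayed negative under all 13 alternatives. It was -0.52 with a pseudocount of 10 CPM, -0.70 with every cell weighted the same and -0.64 without likely doublets (cells of both sexes and the 8% with the most molecules). Reweighting moved it most. With equal shares of the ordering bins it was -0.24, with Cd9 at 0.023 and F2r at 0.15. Then 2 of 7 genes instead of 5 were lower by 0.5 or more (0.113% of all genes, instead of 0.664%). With equal shares of the clusters it was -0.31, with 2 genes (0.27% of all genes) and F2r at 0.064. With equal shares of bins ranked by 6 transcription factors, added after seeing the data, it was -0.46. There 3 genes (0.281% of all genes) were lower by 0.5 or more, and F2r stood at 0.071. The cause was not tested. Treml1 ranged from -1.57 to -0.80, Gp9 from -0.88 to -0.45, Gp5 from -0.80 to -0.24 and Itga2b from -0.59 to -0.18. Leaving out cluster 5 or using the stricter cell filter also gave 5 genes lower by 0.5 or more (0.608% and 0.664% of all genes). The pairs in the same order of onset in both libraries numbered between 12 and 20 over the alternatives. No paired analysis was possible because each group has 1 library. Depth limits Clec1b most, at 290 molecules in DFO.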

Other observations

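Some genes had the opposite pattern to the receptors over cells, and these were chosen after their values were seen. H2afy, which encodes a macroH2A histone, had the most negative correlation with each of the 7 members, taking for each gene the library where it was less negative, from -0.54 in vehicle and -0.47 in DFO with Itga2b to -0.17 and -0.09 with Clec1b. S100a4, which encodes a calcium-binding protein, and Vim, which encodes the filament protein vimentin, were also negative with Itga2b (-0.44 in vehicle for both, and -0.41 and -0.37 in DFO).

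Clec1b molecules were held by few cells. Only 57 vehicle and 13 DFO cells had 5 or more Clec1b molecules before thinning, and they held 49.6% and 52.8% of all its molecules. For Treml1, 387 vehicle and 80 DFO cells had 5 or more, with 51.9% and 26.1% of its molecules. For Gp9 these were 469 and 114 cells, with 33.6% and 13.4%, and for Gp5 703 and 345 cells, with 52.4% and 36.6%.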
